A study of Mus musculus with 18 samples.

Results

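Gata6 encodes a zinc finger transcription factor, and it was taken from the deposited table as the row with that gene symbol, 1 gene of 16221. It was chosen because it is known as the factor of peritoneal macrophages, so its levels are described here and not tested. The study sequenced polyadenylated RNA of 9 sorted populations from C57BL/6 mice, with 2 libraries for each. Macrophages of the peritoneal cavity, the small intestine (ileum), the large intestine (colon) and microglia of the brain belong to experiment 1 in the sample titles. Macrophages of the lung, Kupffer cells of the liver, red pulp macrophages of the spleen, and monocytes and neutrophils of the bone marrow belong to experiment 2. The labels give no treatment, age, sex or sorting gate, and they do not say that the 2 libraries of a population come from separate animals, and the p-values below therefore reflect the spread between these samples, which may be technical. No population was made in both experiments, so across experiments the population and the experiment cannot be told apart; values within experiment 1 are given beside the others.

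GATA factors bind short DNA elements that contain the letters GATA. Gata1, Gata2 and Gata3 act mainly in blood cells, while Gata4, Gata5 and Gata6 act mainly in heart, gut and other organs. The resident macrophages of the mouse peritoneal cavity are a known exception, in which Gata6 maintains a large part of the cells' own expression programme. Retinoic acid, a vitamin A derivative that acts through the nuclear receptors RAR and RXR, is known to induce Gata6 in these cells.

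Levels are given in normalised reads, which are the authors' deposited values. The worth of 1 read in these units differs by library, from 0.562 to 2.20, and the libraries hold 588856 to 1581363 reads in genes. Counting intervals and limits cover counting error only, since no molecular identifiers are stated. In bulk samples, fewer cells of a type and less RNA per cell cannot be told apart.

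The peritoneal libraries held 192.8 normalised reads of Gata6 in replicate 1 and 148.9 in replicate 2, which correspond to 153 and 165 reads. Their mean was 170.9 ± 31.0 (SD, n = 2), and the counting intervals at 95% ran from 163 to 226 and from 127 to 173. Both libraries stood above all 16 others, and the lower of them was 16.6 times the highest value elsewhere. All values of Gata6 were whole reads. Of all Gata6 reads in the data, 318 lay in the peritoneal libraries and 31 in the 16 other libraries, and 91.1% of them were therefore peritoneal. The gene was listed at 0 in 9 of the 16.

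Small intestine macrophages came second, with 8.99 normalised reads (16 reads) in replicate 3, against 1.33 (2 reads) in replicate 4. Large intestine macrophages had 2.36 (2 reads) in replicate 2 and 4.65 (8 reads) in replicate 3. The values of the 2 intestinal populations overlapped, with means of 5.16 ± 5.42 and 3.51 ± 1.62 (SD, n = 2 each), so their order is not resolved. Together the 4 intestinal libraries held 28 of the 31 reads found outside the peritoneal cavity. Lung macrophages, Kupffer cells and spleen red pulp macrophages had 1 read each, in a single library, at 1.11, 1.01 and 0.997 normalised reads. Their other library was listed at 0 in each case, and the order of these 3 populations is not resolved either. The lowest large intestine library lay above the highest of these 3 populations, but it rested on 2 reads, and its counting interval of 0.286 to 8.52 covers them. In microglia, monocytes and neutrophils both libraries were listed at 0.

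**Figure D1:**
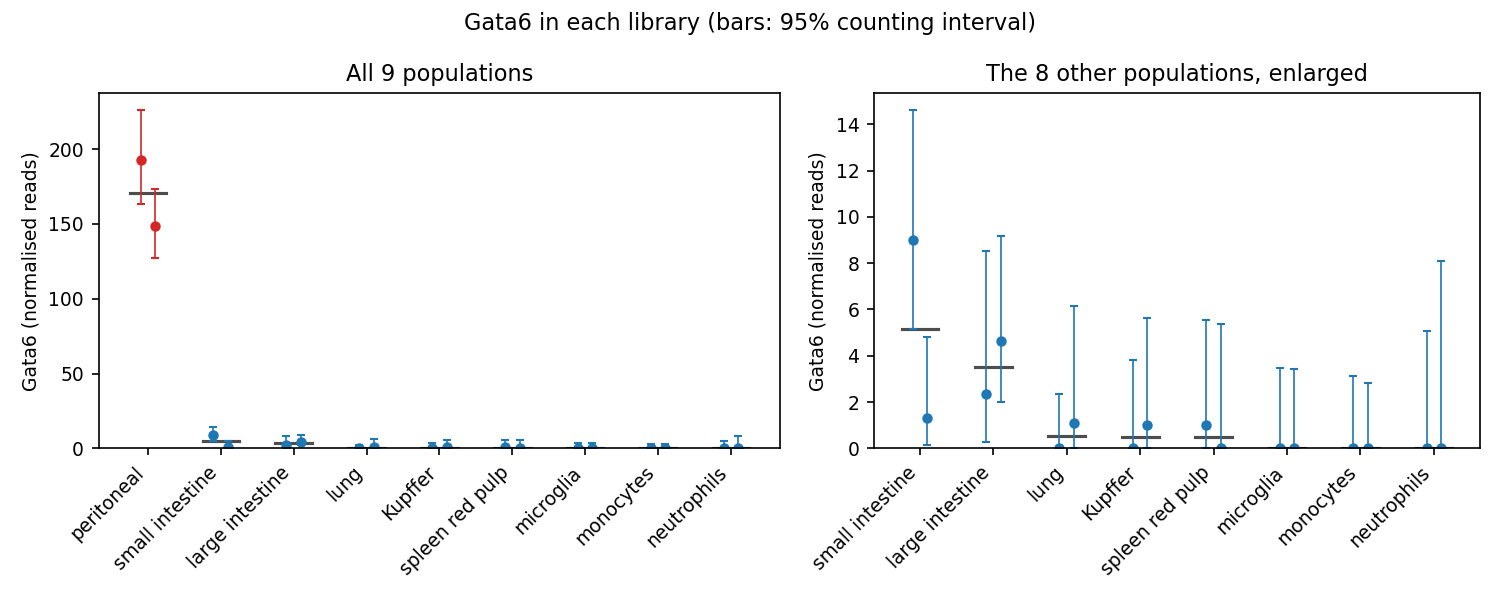
Gata6 in normalised reads (y axis) in each of the 18 libraries, by population (x axis). Points are libraries, bars their 95% counting interval and short lines the population mean. The peritoneal libraries sit at 192.8 and 148.9, and the enlarged panel shows the 8 other populations, none above 8.99.

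Ratios were taken from the reads of both libraries of a population, scaled by the worth of 1 read. The peritoneal level was 30.5 times that of small intestine macrophages (95% counting interval 19.0 to 52.2) and 42.9 times that of large intestine macrophages (23.0 to 90.4). Intervals of pooled reads leave out the spread between the 2 libraries of a population. In small intestine macrophages this spread was wide, with 8.99 normalised reads in replicate 3 and 1.33 in replicate 4. With 1 read each, lung macrophages, Kupffer cells and spleen red pulp macrophages gave ratios of 416 (74.1 to 16468), 327 (58.2 to 12938) and 282 (50.3 to 11184). Where both libraries were listed at 0, the limit was set at 3 reads over the population. Peritoneal Gata6 was then at least 119-fold higher than in microglia, at least 138-fold higher than in monocytes and at least 65.8-fold higher than in neutrophils. These limits take the peritoneal level without its own counting error, so they are not comparable with the intervals above. In the model of all genes the log2 difference of peritoneal macrophages from the mean of the 6 other macrophage populations was 6.33 ± 0.56 (SE) on the log2(value + 1.11) scale, and 5.88 ± 0.62 within experiment 1. That scale understates the change of a gene that is near 0 in the populations it is set against.

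The label of the peritoneal libraries was set against marker lists. The 10 shared macrophage genes were all measured there, some of them at low levels. Csf1r, the receptor for colony-stimulating factor 1, had 1663 and 1678 normalised reads. Of the other macrophage populations, only lung had less Csf1r, with 405 and 258, and microglia replicate 2 reached 7723. Aif1 had 74.3 and 63.2, and again only lung macrophages had less, with 25.3 and 9.96, while Kupffer cells replicate 1 reached 3708. Cd68, a lysosomal glycoprotein of macrophages, was low, with 154 and 137, against 418 to 916 in the other macrophage libraries. Adgre1, which encodes the macrophage surface protein F4/80, had 1535 and 1333, above all other libraries, of which small intestine replicate 4 was highest at 812. Gata6 is also active in mesothelium, the cell layer that lines the cavity. Of 8 mesothelial markers with a row, 5 were listed at 0 in both peritoneal libraries, among them Msln (mesothelin), Wt1, Lrrn4 and Upk1b, and the list summed to 9.45 and 19.9 normalised reads there, against 16.7 to 2286 in the other libraries. The upper end belongs to lung macrophages replicate 2, and in large intestine macrophages, at 2246 and 2028, it comes from the keratins Krt8, Krt18 and Krt19, which other epithelia share. Markers of endothelium and smooth muscle summed to 5.04 and 1.81 normalised reads in peritoneal replicates 1 and 2, against 13.4 to 337 in the other libraries. Erythroid markers summed to 1.26 and 0, against 13.9 to 1189, and all 7 markers of lung epithelium were at 0. T cell markers summed to 0.0741 and 0, and markers of eosinophils and mast cells to 6.30 and 28.0.

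The few Gata6 reads of the intestinal libraries stood beside transcripts of intestinal epithelium, where Gata6 is also known to be active. The 9 epithelial markers summed to 986 normalised reads in replicate 3 and 477 in replicate 4 of the small intestine, and to 1299 and 1398 in large intestine replicates 2 and 3. In the peritoneal libraries they summed to 13.9 and 16.2, all of it Lgals4, with the other 8 at 0. Epcam, an adhesion molecule of epithelia, had 83.1 and 10.6 in small intestine replicates 3 and 4, the same order as Gata6. In large intestine replicates 2 and 3 it had 87.2 and 77.9, and here Gata6 was higher in the library with less Epcam. Hnf4a, a transcription factor of gut epithelium, had 62.9 and 35.8 in small intestine replicates 3 and 4 and 71.9 and 60.5 in large intestine replicates 2 and 3. The part of epithelial transcripts in the intestinal Gata6 reads was not tested.

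**Figure D2:**
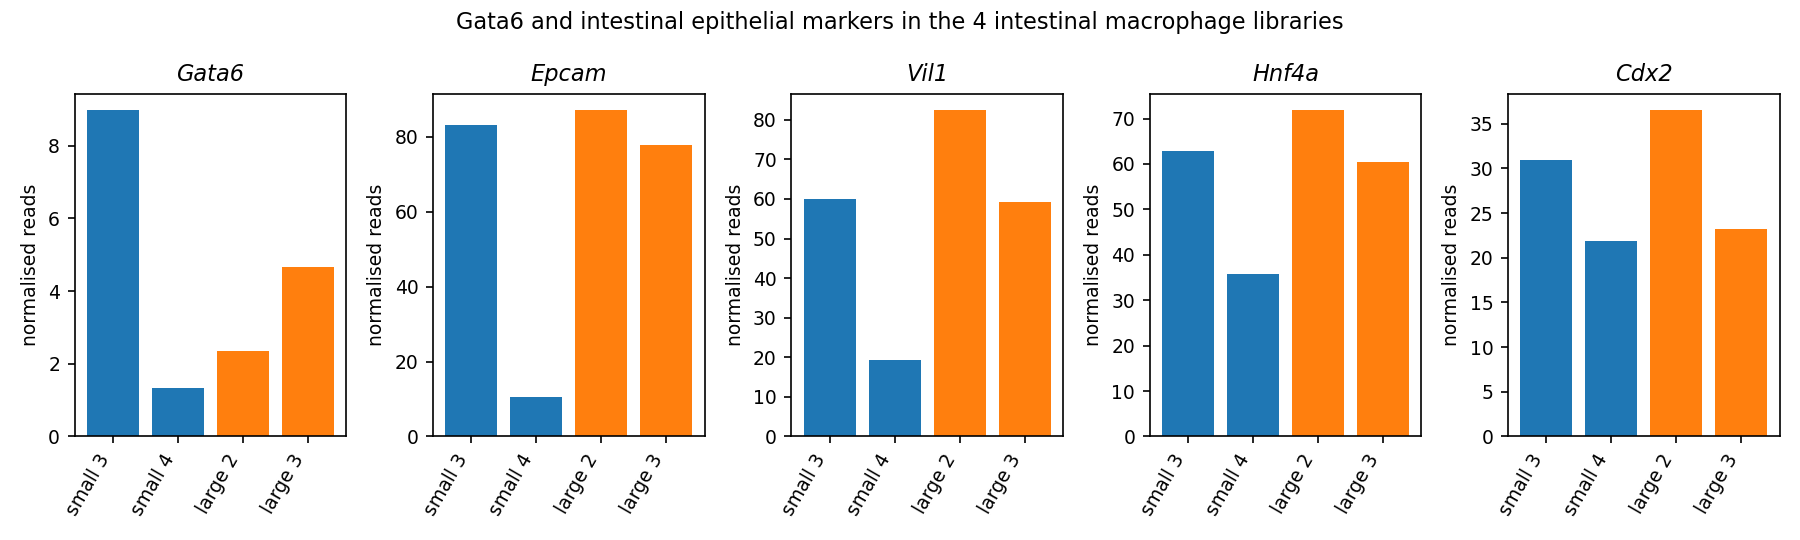
Gata6 and 4 markers of intestinal epithelium, in normalised reads (y axes, each from 0), in the 2 small and 2 large intestine macrophage libraries (x axes). Gata6 has 8.99 and 1.33 in small intestine replicates 3 and 4 and 2.36 and 4.65 in large intestine replicates 2 and 3, while Epcam, Vil1, Hnf4a and Cdx2 are present in all 4 libraries.

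Within the GATA family, Gata6 was the only member with a read in the peritoneal libraries: Gata1 to Gata5 were listed at 0 in both. Gata1, the factor of red cell and megakaryocyte development, had 27.9 and 20.5 normalised reads in spleen red pulp macrophages, where the erythroid markers Slc4a1, the anion exchanger of red cells, and Klf1, an erythroid transcription factor, had 539 and 438 and 48.8 and 30.7. In neutrophils Gata1 averaged 8.81 ± 3.13 (SD, n = 2). The erythroid markers summed to 1189 and 343 in neutrophils replicates 1 and 3, against 1050 and 887 in spleen. Lung macrophages had 0 in replicate 1 and 14.4 in replicate 2. Gata4 had 8.32 and 17.2 in Kupffer cells and 1.12 in small intestine replicate 3, and it was listed at 0 in the other 15 libraries. Gata3, a factor of T cells and innate lymphoid cells, was spread over lung macrophages (4.42 and 7.75), Kupffer cells (2.08 and 7.07) and spleen (3.99 and 1.46) and was 6.64 in small intestine replicate 4. Gata2, a factor of blood progenitors and mast cells, had 5.51 and 2.20 in neutrophils and 3.16 and 3.32 in lung macrophages. Gata5 stayed at or below 2.65 in every library, and the 3 of these genes that passed the filter on low values, Gata1, Gata3 and Gata4, did not pass the test described next (limma, BH, adjusted p = 0.221, 0.112 and 0.219).

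**Figure D3:**
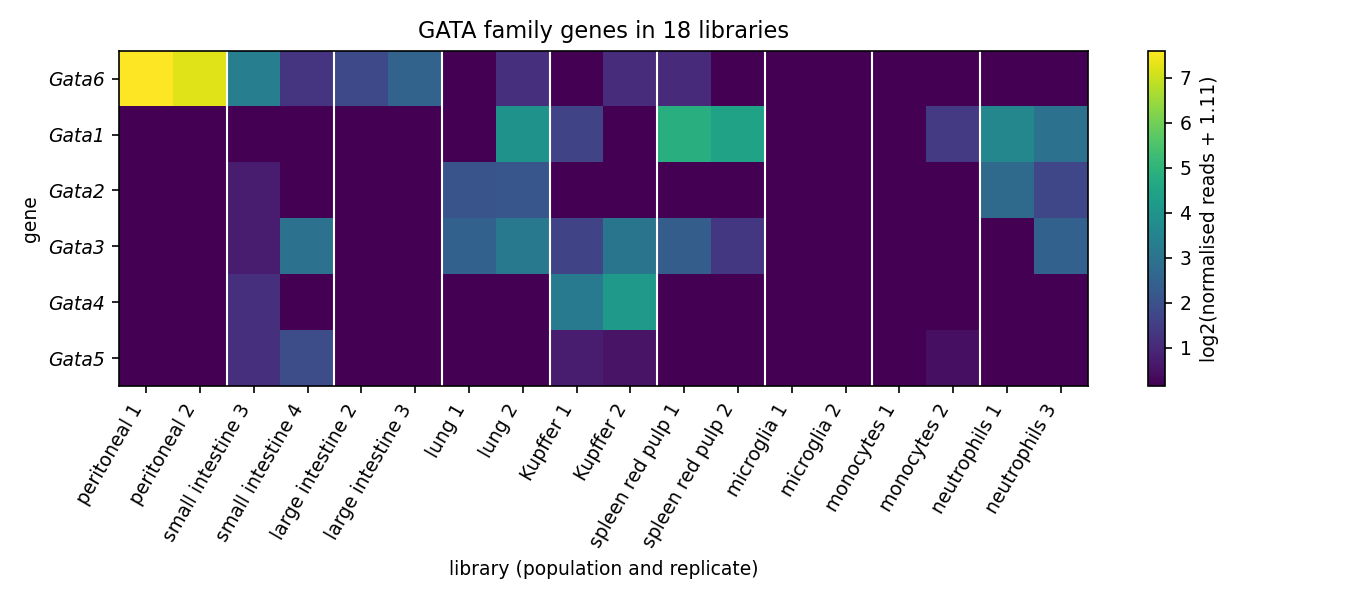
The 6 GATA genes (rows) in the 18 libraries (columns, peritoneal first), as log2 of normalised reads plus 1.11. Gata6 is brightest in the peritoneal columns, Gata1 in spleen and Gata4 in Kupffer cells, and Gata1 to Gata5 are at 0 in both peritoneal libraries.

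The following tests set peritoneal macrophages against the average of those 6 macrophage populations over 12014 tested genes. Calls needed an absolute log2 difference of 1 or more together with an adjusted p under 0.05 (limma, Benjamini-Hochberg, BH), and "rose" and "fell" are used for called genes. Of all tested genes, 21.0% were called, 7.17% higher and 13.8% lower, and within experiment 1 the shares were 24.0%, 7.81% and 16.2%. Of the called genes 34.2% were higher, but 45.8% with equal library totals and 47.2% with quantile normalization, which move the median of all genes by 0.21 and 0.17 on the log2 scale. Without peritoneal replicate 1 the 2517 calls became 1334, and without replicate 2 they became 1709. Of the 10 shared macrophage genes, 3 rose (Cd14, Lyz2 and Cebpb), 3 fell (Fcgr1, Aif1 and Cd68) and 4 did not pass.

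Of 6 genes listed as partners of GATA proteins or related factors, 5 were tested, 0 rose, 0 fell and 5 did not pass. Of all tested genes, 7.17% rose and 13.8% fell. Trps1 had the largest log2 difference, 1.74 ± 0.67 (limma, BH, adjusted p = 0.0668), with 11.3 and 2.71 normalised reads in the peritoneal libraries. Zfpm1, which encodes FOG-1, a cofactor of GATA proteins, had 29.0 and 72.2 normalised reads in peritoneal macrophages, inside the range of the other macrophages (11.3 to 154), with a log2 difference of 0.09 ± 0.46 (limma, BH, adjusted p = 0.911). Zfpm2, the cofactor FOG-2, had 0 reads in either peritoneal library, and its highest value was 2.02, in Kupffer cells replicate 2. Lmo2, a bridging protein of GATA complexes in blood cells, had 125 and 146, against 26.3 to 217 in the other macrophages, and a log2 difference of 0.98 ± 0.23 (limma, BH, adjusted p = 0.00400), just under the size needed for a call.

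Retinoic acid genes went both ways. Of 22 listed, 19 have a row and 18 were tested: 7 rose, 4 fell and 7 did not pass. Of all tested genes, 7.17% rose and 13.8% fell. The median log2 difference of the 18 was 0.65, against -0.15 over all tested genes. Of the 18, 15 would pass the filter on low values without the peritoneal libraries. The 3 that would not, Rarb, Rxrg and Cyp26a1, are counted among those that rose and in the median, and both therefore lean upwards. The other members that rose were Rara, Rarg, Aldh1a2 and Dhrs3. As the peritoneal libraries brought these 3 into the test, they are described by their levels, with no p. Within experiment 1, 9 rose, 4 fell and 5 did not pass, where 7.81% of all tested genes rose and 16.2% fell. The called members numbered 11, but 6 without peritoneal replicate 1 and 7 without replicate 2.

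Among the receptors, Rarb (retinoic acid receptor beta) had 11.3 and 9.03 normalised reads in peritoneal macrophages and at most 2.08 in any other library, so the groups did not overlap. Its log2 difference was 3.07 ± 0.44 (SE). Rarg, the gamma receptor, had 64.3 and 158, against at most 16.1 in other macrophages, though monocytes reached 81.8, and rose by 4.19 ± 0.55 (limma, BH, adjusted p = 1.89e-05). Rara, the alpha receptor, rose (limma, BH, adjusted p = 0.00122), but its 144 and 87.6 were inside the range of other macrophages, which reached 254 in lung replicate 1, and the call was lost without peritoneal replicate 1. The RXR partners differed among themselves: Rxrg had 20.2 and 9.93 and was listed at 0 in every other library except microglia replicate 2, with 9.27. Rxra, at 397 and 296, did not pass over all populations (limma, BH, adjusted p = 0.122) and rose by 1.66 within experiment 1.

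Of the enzymes, Cyp26a1, which degrades retinoic acid, had 26.5 and 12.6 normalised reads in peritoneal macrophages and at most 1.01 elsewhere, with a log2 difference of 3.98 ± 0.41 (SE). Dhrs3, a retinaldehyde reductase, had 1469 and 1414, above the 816 of the next library, microglia replicate 2, and rose by 1.95 ± 0.24. Aldh1a2, a retinaldehyde dehydrogenase that makes retinoic acid, had 20.0 and 15.3 and at most 7.47 elsewhere. It rose by 1.71 ± 0.54 (limma, BH, adjusted p = 0.0290). The call was lost without either peritoneal library, with the smaller pseudocount and with the replicate number as a block. Aldh1a1, another enzyme of this kind, had 0 reads in either peritoneal library and fell, and this call too was lost without either of them. Rdh11, a retinol dehydrogenase, also fell (limma, BH, adjusted p = 0.00448), a call lost without peritoneal replicate 2. Hic1, a transcriptional repressor that retinoic acid induces in lymphocytes, had 1.26 and 0, against up to 378 in small intestine replicate 3, while lung macrophages and microglia had at most 5.06. Its log2 difference was -4.01 ± 0.81 (limma, BH, adjusted p = 0.00139). Tgm2, a transglutaminase known to be induced by retinoic acid in several cell types, went the other way from the receptors. It had 17.6 and 34.3 in peritoneal macrophages and up to 601 in spleen replicate 1, with a log2 difference of -2.97 ± 0.24 (limma, BH, adjusted p = 4.31e-08).

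Rarb and Cyp26a1 are textbook targets of retinoic acid, with known response elements at their starts, and their promoters are shown because both genes stood out beside Gata6. The windows are RefSeq sequences of build GRCm38.p6, from 250 bases before to 50 bases after a gene's start, and read 5′ to 3′ on the gene's strand. The build differs from that of the alignment, so they serve as reference sequence only. Capitals mark matches, on either strand, to the letters GTTCA repeated in the same direction with any 6 bases between the copies. This motif was chosen with these 2 promoters in mind.
Rarb (chr14:16575427-16575726, minus strand): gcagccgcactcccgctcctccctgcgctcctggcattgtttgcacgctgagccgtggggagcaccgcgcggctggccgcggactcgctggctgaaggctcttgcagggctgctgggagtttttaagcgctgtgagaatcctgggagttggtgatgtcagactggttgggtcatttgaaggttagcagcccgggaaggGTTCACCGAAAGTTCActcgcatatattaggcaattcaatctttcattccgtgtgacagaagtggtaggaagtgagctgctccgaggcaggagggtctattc
Cyp26a1 (chr19:37697558-37697857, plus strand): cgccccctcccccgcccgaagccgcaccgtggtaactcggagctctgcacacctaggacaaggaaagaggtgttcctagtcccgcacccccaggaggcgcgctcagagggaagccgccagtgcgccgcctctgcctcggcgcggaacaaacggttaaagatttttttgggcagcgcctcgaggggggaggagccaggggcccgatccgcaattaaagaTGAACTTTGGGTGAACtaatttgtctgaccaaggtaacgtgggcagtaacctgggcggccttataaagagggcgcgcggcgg
The match begins 52 bases before the start in Rarb and 32 bases before it in Cyp26a1, where it lies on the opposite strand. Among 32851 windows of the same length, 25 held such a match (0.0761%). Of the 17 retinoic acid genes with a window, these 2 held it. The choice of the motif had fixed these matches in advance, so they are not set against that share.

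A second list held 24 genes that are known to depend on Gata6 in peritoneal macrophages of mice or are usually named with it, such as Tgfb2 and Aspa. It was compiled with earlier results of these data known and is not independent evidence of its direction. All 24 were tested and rose, against 7.17% of all tested genes, with a median log2 difference of 6.18. Of the 24, 20 would pass the filter without the peritoneal libraries, and the other 4 (Tgfb2, Ltbp1, Serpinb2 and Rarb) passed only through them. In 19 of the 24 both peritoneal libraries lay above all 16 other libraries, against 3.70% of all tested genes. In 21 they lay above all 12 other macrophage libraries, against 5.66%. The 4 are part of both counts and of the median, and their separation is largely given by the filter. As the list was compiled with earlier results known, the counts are a description and not a test. Within experiment 1, 22 rose and 2 did not pass, where 7.81% of all tested genes rose.

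Tgfb2, which encodes transforming growth factor beta 2, had 513 and 485 normalised reads and at most 5.06 elsewhere, a log2 difference of 7.72 ± 0.70. Ltbp1, which binds latent TGF-beta, had 493 and 413 and at most 7.75 elsewhere. Thbs1, thrombospondin 1, which is known to activate latent TGF-beta, had 350 and 284, against at most 11.1 in other macrophages and 81.3 in neutrophils replicate 3. Fn1, fibronectin, had 2446 and 2748, while monocytes reached 1123 and other macrophages 157. Prg4, the lubricant proteoglycan 4, had 1907 and 1664 and at most 34.3 elsewhere, in microglia replicate 2. All 5 were separated from every other library. Among Thbs1, Fn1 and Prg4, which pass the filter without the peritoneal libraries, the adjusted p (limma, BH) was at most 4.32e-06, for Thbs1.

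Among enzymes, inhibitors and other secreted proteins, some were shared with neutrophils. Alox15, a lipoxygenase, had 6902 and 5791 normalised reads and at most 50.5 elsewhere, in Kupffer cells replicate 2. Serpinb2, an inhibitor of plasminogen activators, had 727 and 635 and at most 11.1. Saa3, an acute phase protein, had 1448 and 1214 and at most 47.6. Aspa, aspartoacylase, an enzyme reported to depend on Gata6 in mice, was far lower, with 25.2 and 29.8 and at most 12.1 elsewhere, and rose by 3.56 ± 0.49 (limma, BH, adjusted p = 2.92e-05). Padi4, a peptidylarginine deiminase, had 1659 and 1612 in peritoneal macrophages, but neutrophils came close with 1003 and 1554. Lrg1, a secreted glycoprotein, had 747 and 650, and neutrophils stood above them with 3018 and 5137.

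The coagulation genes F5 (factor V, 300 and 482 normalised reads) and F10 (factor X, 886 and 686), on the list rose by 7.63 ± 0.55 and 5.87 ± 0.67. F10 also reached 357 in lung macrophages, and F5 125 in neutrophils. Among surface proteins, Icam2, an adhesion molecule used to sort large peritoneal macrophages, had 1153 and 1152 and at most 56.3 elsewhere, and Selp, P-selectin, had 572 and 690 and at most 8.79. Ednrb, an endothelin receptor, had 680 and 488 and at most 10.1. Cd93 and Cd9 were the weakest members, with log2 differences of 2.08 ± 0.48 and 1.42 ± 0.21, and other macrophages stood higher: Cd93 reached 286 in small intestine replicate 3, against 150 and 132 in peritoneal macrophages, and Cd9 reached 2728 in lung replicate 2, against 542 and 413. Neither passed within experiment 1, and Cd93 did not pass without peritoneal replicate 1 either. The value of Naip1, at 101 and 119, is uncertain because near-identical copies of this gene exist and it is unknown how reads were shared out.

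**Figure D4:**
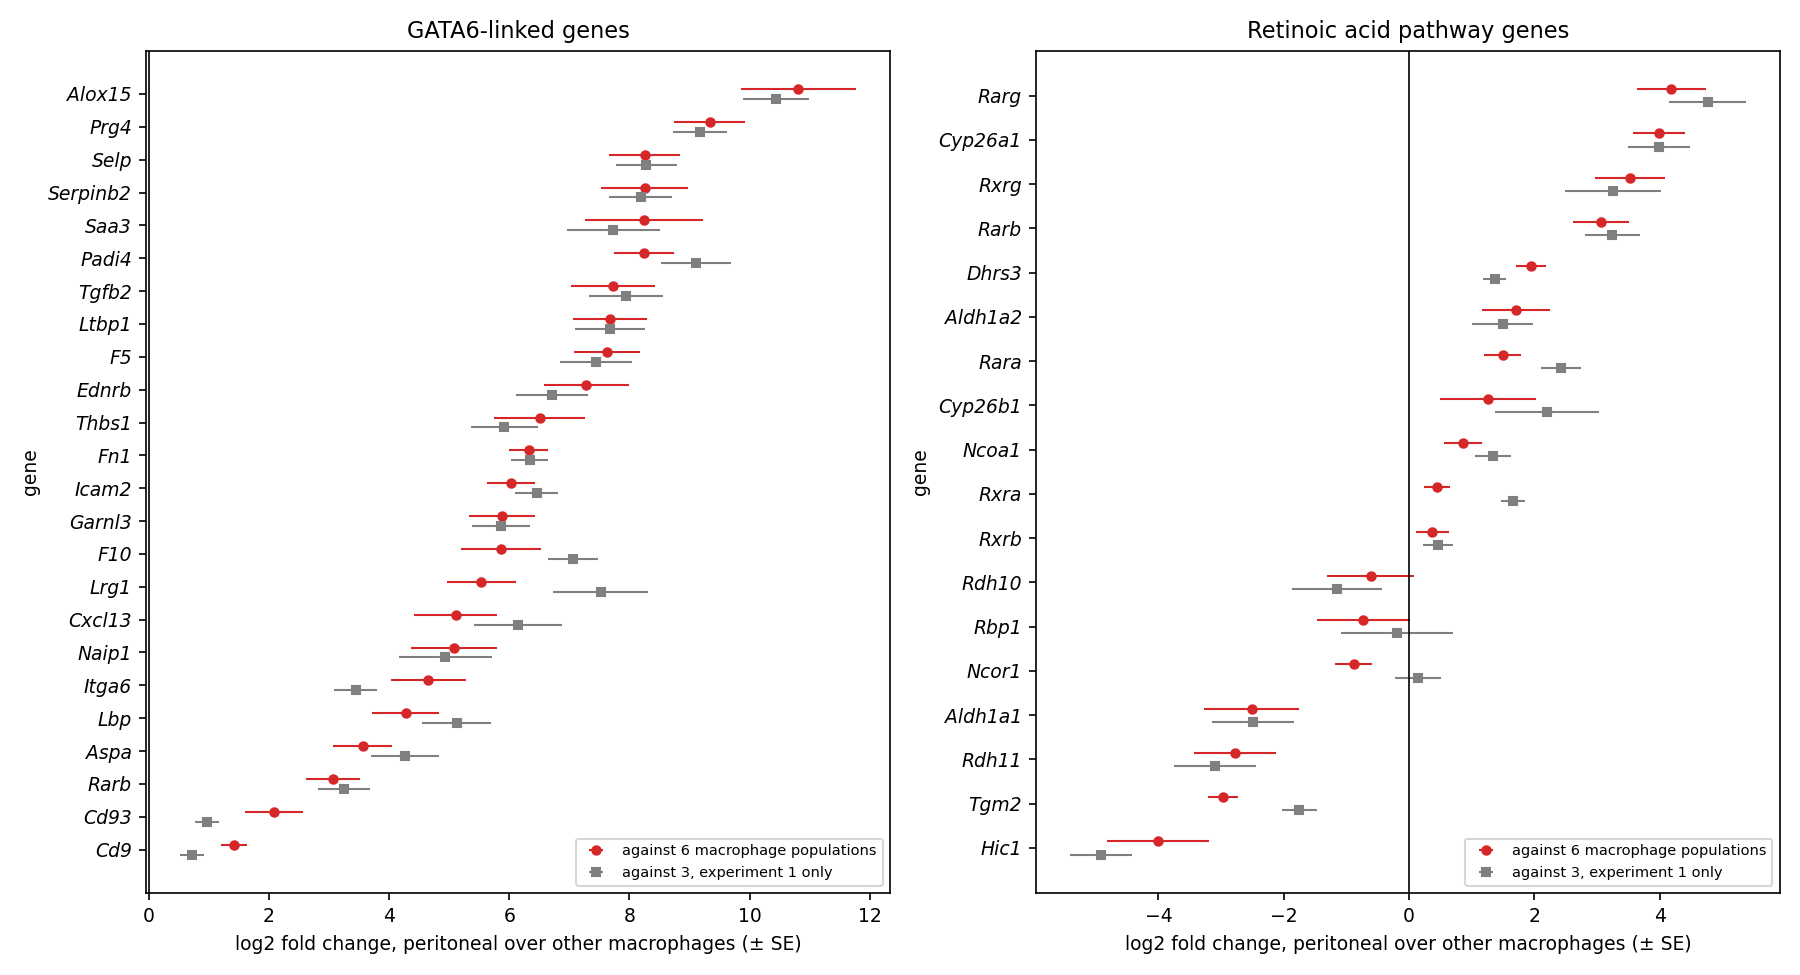
Log2 differences ± SE of the 24 GATA6-linked genes (left) and the 18 tested retinoic acid genes (right), peritoneal macrophages over the 6 other macrophage populations (red) and over the 3 others of experiment 1 (grey). The red points of the left panel run from 1.42 for Cd9 to 10.81 for Alox15, while the right panel lies on both sides of 0.

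The peritoneal cavity holds large macrophages with Gata6 and small ones that lack it and carry MHC class II, the molecules that present antigen to helper T cells. Of 12 genes of the small type, 11 were tested: 1 rose, 7 fell and 3 did not pass, with a median log2 difference of -2.27. Of all tested genes, 7.17% rose and 13.8% fell. Ciita, which switches on the class II genes, had 6.30 and 8.12 normalised reads in peritoneal macrophages and up to 711 in small intestine replicate 3. Microglia (5.64 and 1.85) and lung macrophages (4.42 and 5.53) had less Ciita still. Itgax, the integrin CD11c, had 1.26 and 0, and at least 5.64 in the other macrophage libraries. H2-Ab1, a class II chain, had 256 and 264, against 10950 and 9071 in large intestine macrophages but only 201 and 206 in microglia, so it fell against the mean of the 6 without lying below each of them. Ccr2, a chemokine receptor, had 8.82 and 9.93 and did not pass over all populations (limma, BH, adjusted p = 0.0774), while it fell within experiment 1. Irf4, a transcription factor of this list, went the other way, with 50.4 and 50.6, and rose by 2.14 ± 0.60 (limma, BH, adjusted p = 0.0138). That call did not hold within experiment 1, with the smaller pseudocount or without either peritoneal library, and large intestine replicate 3 stood above both peritoneal libraries with 52.3, while small intestine macrophages had 44.9 and 49.8. All 9 surface genes of the large type with a row rose, and 8 within experiment 1, against 7.17% and 7.81% of all tested genes. Of these, Icam2, Selp, Cd93 and Itga6 were already counted among the GATA6-linked genes. This list too was chosen with earlier results of these data known, so its counts are a description. In 5 of the 9 both peritoneal libraries lay above all other libraries, against 3.70% of all tested genes. Timd4, a receptor for apoptotic cells, had 645 and 366, with Kupffer cells next at 287 and 352. Marco had 120 and 150, below Kupffer cells (839 and 1117) and lung macrophages (527 and 853). Vsig4 had 49.1 and 28.9 and was higher in Kupffer cells, with 322 and 190.

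Likeness to Gata6 was measured by Pearson's r of log2(value + 1.11) over the 18 libraries, as a description with no test, since all genes share the same libraries. Of 12013 genes, 17 had r of 0.9 or more, all with their highest population mean in peritoneal macrophages, and the median over all genes was -0.0039. As Gata6 is high only there, this peak is given by the measure and is not a finding. Most of the 15 closest named genes, like Gata6, also passed the filter on low values only through the peritoneal libraries. The 15 closest named genes had r from 0.901 to 0.956. Many of them are low, and outside the peritoneal cavity Gata6 itself has 31 reads in all. Leaving out peritoneal replicate 1 or replicate 2 left 0 genes at 0.9 or more.

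Adamtsl5, a secreted protein related to matrix proteases, was closest, with r of 0.956, 16.4 and 34.3 normalised reads in peritoneal macrophages and at most 2.36 elsewhere, in large intestine replicate 2. Rai14, a cytoskeletal protein found as induced by retinoic acid, followed with r of 0.936, 40.3 and 21.7 and at most 3.98 elsewhere. Car6, a secreted carbonic anhydrase, had 55.4 and 64.1 and was listed at 0 in the other 16 libraries, as were Efcab5, Rp1 and Vmn2r25, at 18.9 and 31.6, 25.2 and 9.93, and 7.35 and 14.9. Prtg (protogenin) had 40.3 and 43.3 and at most 0.116 elsewhere, and Lama3, a laminin chain, had 23.9 and 25.3 and at most 0.927. Ltbp1 and Serpinb2, described above, were also among the 15. Nipal1, a magnesium transporter, had 52.9 and 46.9 and at most 14.1 elsewhere, in large intestine replicate 2. Uap1, an enzyme of sugar nucleotide synthesis, was present in all 18 libraries, at 90.7 and 81.2 in peritoneal macrophages and at most 25.9 elsewhere. Slc10a6, a transporter of steroid sulfates, had 26.5 and 10.8.

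The row of the microRNA gene Mir199b, at 60.5 and 93.0 normalised reads, and that of Dnm1 (dynamin 1), at 18.9 and 11.7, are both among the 15, and Mir199b lies inside Dnm1 on the opposite strand. It is not stated whether reads were counted by strand, so reads of the 2 genes cannot be told apart. The polyA libraries do not measure the mature microRNA. Vmn2r25 belongs to a multigene family and its value is likewise uncertain. At the other end, the genes least like Gata6 were Mrnip, Csnk1e, Arhgap27, Parvg and Lpcat1, with r from -0.889 to -0.866. Lpcat1, an enzyme of phospholipid remodelling, had 0 reads in either peritoneal library, and Parvg, a protein of integrin adhesions, had 0 and 1.81, against up to 697 in neutrophils.

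**Figure D5:**
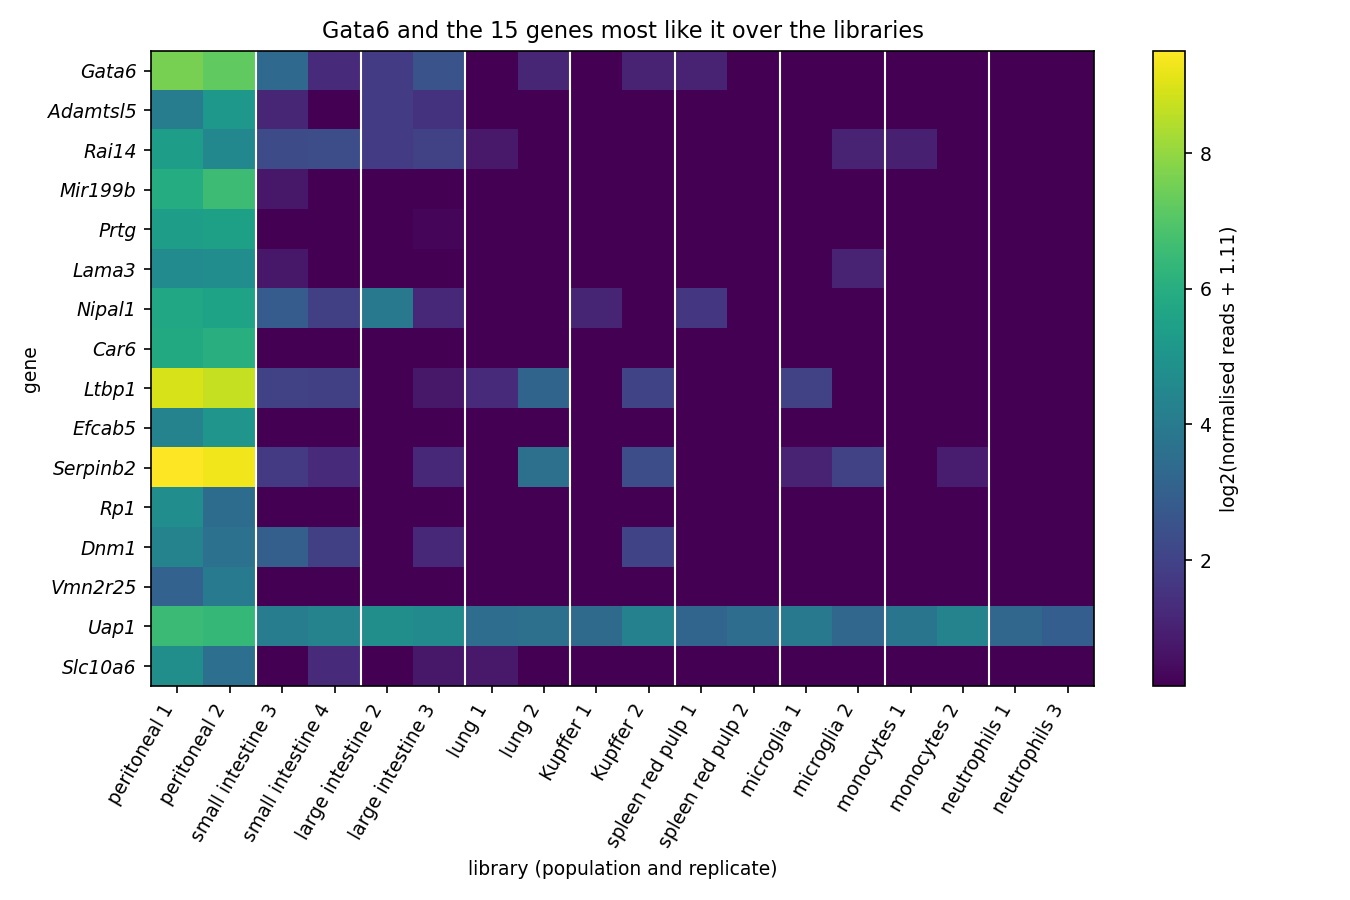
Gata6 and the 15 named genes most like it (rows) in the 18 libraries (columns, peritoneal first), as log2 of normalised reads plus 1.11. The peritoneal columns are bright in every row, and Uap1 is the row with reads in all libraries.

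Promoters of these genes were searched for the GATA element, which was taken as the letters AGATAA or with a final G in place of the final A, and as TGATAA or with the same replacement, on either strand. Of the 15, 12 have a window in the RefSeq table, and 3 of these held a match: Serpinb2, Dnm1 and Vmn2r25. Among the 24 GATA6-linked genes, 16 have a window and 3 held a match, which are Tgfb2, Serpinb2 and Saa3. Of all 32851 windows, 29.8% held one. That share is per window, while a gene was counted if any of its windows held a match. Neither set stood above that share. The windows of Serpinb2 and Tgfb2 are shown as examples, with the match in capitals.
Serpinb2 (chr1:107511260-107511559, plus strand): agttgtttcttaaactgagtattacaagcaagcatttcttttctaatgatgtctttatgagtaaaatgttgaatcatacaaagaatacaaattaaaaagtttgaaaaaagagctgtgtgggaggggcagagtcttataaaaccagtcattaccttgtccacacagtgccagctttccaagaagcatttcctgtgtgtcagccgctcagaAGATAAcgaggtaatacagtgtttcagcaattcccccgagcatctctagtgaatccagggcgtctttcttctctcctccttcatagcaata
Tgfb2 (chr1:186705940-186706239, minus strand): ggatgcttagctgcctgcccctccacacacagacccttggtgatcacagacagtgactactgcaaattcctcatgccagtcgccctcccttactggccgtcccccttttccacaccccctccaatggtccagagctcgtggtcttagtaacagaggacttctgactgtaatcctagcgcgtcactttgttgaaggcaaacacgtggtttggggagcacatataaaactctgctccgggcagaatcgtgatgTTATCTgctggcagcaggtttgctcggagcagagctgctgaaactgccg
The Serpinb2 match begins 41 bases before this start, 1 of 2 starts listed for the gene, and the Tgfb2 match lies just after the start. A match is a description of the letters in this window and not of a bound site.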

How the data were processed

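Messenger RNA of sorted cells was captured on oligo(dT) beads, reverse transcribed with indexing, pooled and amplified by in vitro transcription, per the labels' protocols. Reads were aligned to mm9 with TopHat, per the submitters' processing notes. The read counter, its annotation and the scaling method are details not given in the sources used here. Per RefSeq transcript and library, the deposited signal is a read count that the authors appear to have scaled by 1 factor per library, as the values show. Whole multiples of 1 step per library (tolerance 0.01 read), taken as the worth of 1 read, made up 86.6% to 88.9% of nonzero values. The rest were fractions, so no method for raw counts was used.

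Of 20814 transcripts, 20372 (97.9%) were matched by accession to current symbols, and 16221 genes remained, each as its transcript with the highest mean. Gata6 has 1 row. Values were analysed as log2(value + 1.11), the pseudocount being the median column total over 1e6. Genes at 5.53 or more (5 pseudocounts) in at least 2 libraries were tested. The linear model had the 9 populations as 1 factor, leaving 9 residual degrees of freedom; limma 3.58.1 (R 4.3.3) gave moderated two-sided tests with a mean-variance trend and BH adjustment. It was tested on simulated data. Tables and plots were made with Python 3.11.15, pandas 2.3.3, scipy 1.17.1 and matplotlib 3.10.9. Counting intervals are exact Poisson intervals, and those of ratios are exact Clopper-Pearson intervals of the share of reads.

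Gata6, the 15 gene lists and the tests were chosen with earlier results of these data known. The values of 1 marker list are not reported here. Named genes are Gata6, the 15 genes of highest and 5 of lowest r, and, of each list, up to 8 members of largest change and 4 others; further members of the GATA6-linked list were named after their values were seen; predicted genes are counted and not named, and genes with identical values count once. Alternatives were scaling, pseudocount, filter, trend, experiment 1 alone, macrophage libraries alone, replicate number as a block, and each macrophage library left out.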

Additional observations from a re-analysis of the deposited data

How the results depend on the processing

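The log2 difference of Gata6 kept its sign throughout. It was 4.66 with 5 times the pseudocount, 7.61 with 0.2 times it, 6.69 with quantile normalization and 5.88 within experiment 1, and 6.15 to 6.52 when 1 macrophage library was left out. Calls over all genes numbered 1334 to 2719, of the GATA6-linked list 21 to 24, of the retinoic acid list 6 to 11 and of the list of the small type 7 to 9 in those fits. The 15 genes most like Gata6 depended on the measure. The number at 0.9 or more, 17 over all libraries, was 0 by Spearman's rho, 118 on the linear scale, 36 over population means, 47 and 1 with the larger and smaller pseudocount and 210 in experiment 1. Of the 15, 3 were shared by Spearman's rho, 2 by the linear scale, 7 by population means, 9 with the larger pseudocount, 7 in the macrophage libraries and 0 in experiment 1. Without either peritoneal library 0 genes reached 0.9 and 5 of the 15 were shared. The cause was not tested.

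For 65 tested members of the lists on GATA genes, their partners, GATA6-linked genes, retinoic acid and both types of peritoneal macrophage, 1544 values were computed under 24 alternatives. Of these, 1511 kept their side of the threshold, 15 ended a call, 18 added one and 0 called values changed sign. Replicate numbers share only a name, and the first Kupffer and lung libraries, unnumbered in their titles, were given number 1: same-numbered libraries of different populations had correlated deviations of -0.040 to 0.051 in 45 pairs, and 3 of 18 libraries correlated best with their own number. With the replicate number as a block, the log2 difference of Gata6 was 6.26, 2095 genes were called, and Aldh1a2 did not pass (limma, BH, adjusted p = 0.0518). Depth limits Gata6 outside the peritoneal cavity, where most libraries have 0 to 2 reads.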
